A study of Mus musculus with 6 samples.

Results

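Slits, netrins, semaphorins and ephrins are guidance cues, ligands first described for steering growing axons and used by many epithelial and tumour cells to set adhesion, migration and vessel growth. Slits bind Robo receptors, netrins bind Dcc, neogenin and Unc5 receptors, secreted class 3 semaphorins bind plexins together with neuropilins, membrane semaphorins bind plexins directly, and ephrins bind Eph receptor kinases on neighbouring cells. Many of these receptors act on the actin skeleton. Rgnef is the product of the gene Arhgef28. The genes described here are a named list of 50 such ligands and receptors, found by symbol among the 35275 genes of the deposited table: 3 Slits, 3 Robo receptors, 2 netrins, 2 Unc5 receptors, 18 semaphorins, 9 plexins, 7 ephrins and 6 Eph receptors. They were chosen by family, with the FPKM differences between the same 6 libraries already in view.

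Messenger RNA was sequenced in 6 libraries of ID8-KMF, a mouse ovarian cancer line (strain C57Bl6/J) obtained by passing ID8 cells through mice. The 3 knockout libraries came from Rgnef-/- cells, and the 3 GFP-Rgnef libraries came from Rgnef-/- cells to which a lentivirus had returned Rgnef fused to GFP, so the loss of the endogenous gene is common to both groups. All cells were subconfluent on culture dishes treated with 0.2% Matrigel. Means written with ± carry the SD over the 3 libraries of a group. The lentivirus and the tag arrived together with Rgnef and cannot be told apart from it, the unedited parental line was not analysed here, and the labels do not say whether a line was 1 clone or whether the 3 libraries of a group were separate cultures. Values are FPKM (fragments per kilobase of transcript, scaled to sequencing depth), so levels of different genes are given per length.

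Rgnef RNA followed the labels, at 0.110 to 0.134 FPKM in knockout libraries and 50.02 to 57.2 FPKM in GFP-Rgnef libraries. Library depths, recovered from the steps of 1 read in the FPKM values, were 16743473 to 17977069 reads in knockout libraries and 15898965 to 17274843 reads in GFP-Rgnef libraries. Of 10 ovarian surface and mesothelial markers 8 averaged at least 1 FPKM, with sums of 1665 to 2650 FPKM in knockout and 1755 to 2611 FPKM in GFP-Rgnef libraries, while Krt7 and Epcam were near 0. Leukocyte markers summed to 4.503 to 5.813 FPKM in knockout and 4.856 to 5.914 FPKM in GFP-Rgnef libraries, with 3 of 7 at 0 in all libraries. Of 6 endothelial markers only Tek exceeded 1 FPKM. Tek was abundant, with a mean of 124.3 ± 33.6 FPKM in knockout and 103.8 ± 7.15 FPKM in GFP-Rgnef libraries (SD, n = 3 each), and was not called. Neuronal markers summed to 9.65 to 11.5 FPKM in knockout and 15.8 to 19.2 FPKM in GFP-Rgnef libraries, mostly from Tubb3, and fibroblast markers to 41.95 to 46.6 FPKM in knockout and 50.8 to 73.3 FPKM in GFP-Rgnef libraries, mostly from Dcn. Of the ovarian surface and mesothelial markers Krt18 was called lower, at 224.4 ± 9.21 FPKM in knockout and 319.8 ± 29.8 FPKM in GFP-Rgnef libraries. Upk3b averaged 251.1 ± 116.7 FPKM in knockout and 92.3 ± 43.1 FPKM in GFP-Rgnef libraries (SD, n = 3 each). The groups overlapped and Upk3b was not called. The lower neuronal and fibroblast sums came mostly from Tubb3 and Dcn, the 2 called genes of those lists. Thy1, Rbfox3 and Elavl3 also had lower means in knockout libraries, but overlapped and were under the filter. Other markers of those lists ran the opposite way without being called. Map2 averaged 1.84 ± 0.572 FPKM in knockout and 0.933 ± 0.345 FPKM in GFP-Rgnef libraries (SD, n = 3 each). Col1a1 averaged 5.52 ± 2.95 FPKM in knockout and 1.79 ± 1.08 FPKM in GFP-Rgnef libraries. Col3a1 averaged 4.93 ± 5.46 FPKM in knockout and 2.11 ± 1.60 FPKM in GFP-Rgnef libraries. Pdgfra averaged 1.04 ± 0.431 FPKM in knockout and 0.436 ± 0.0923 FPKM in GFP-Rgnef libraries. Whether these markers bear on the guidance genes was not tested. In bulk RNA, fewer cells of a type and less RNA per cell cannot be told apart.

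The guidance genes differed widely in level. Of the 50, 36 had a mean of at least 0.5 FPKM over the 6 libraries and entered the fit, and 14 were below it. Slit2 and Unc5c passed it only through the knockout libraries, so they had to differ to be tested. In the larger families 1 member far exceeded the rest. Plxnb2 (448.6 ± 50.1 FPKM in knockout and 469.2 ± 31.8 FPKM in GFP-Rgnef libraries, SD, n = 3 each) made up 85.9% of plexin FPKM in knockout and 87.4% in GFP-Rgnef libraries. In knockout and in GFP-Rgnef libraries, Epha2 made up 86.3% and 83.5% of the FPKM of the 6 Eph receptors, Efnb2 61.4% and 63.5% of that of the 7 ephrins, and Sema3c 59.3% and 58.5% of that of the 18 semaphorins. Among the 11500 genes in the fit, Plxnb2 ranked 205, Epha2 300, Sema3c 333, Efnb2 778 and Unc5b 1404 by level, and none of these 5 was called. Shares and ranks depend on the lengths behind FPKM. These were recovered as 2563 against 7720 annotated exon bases for Plxnb2, and 7418 against 9054 for Plxna1.

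**Figure D1:**
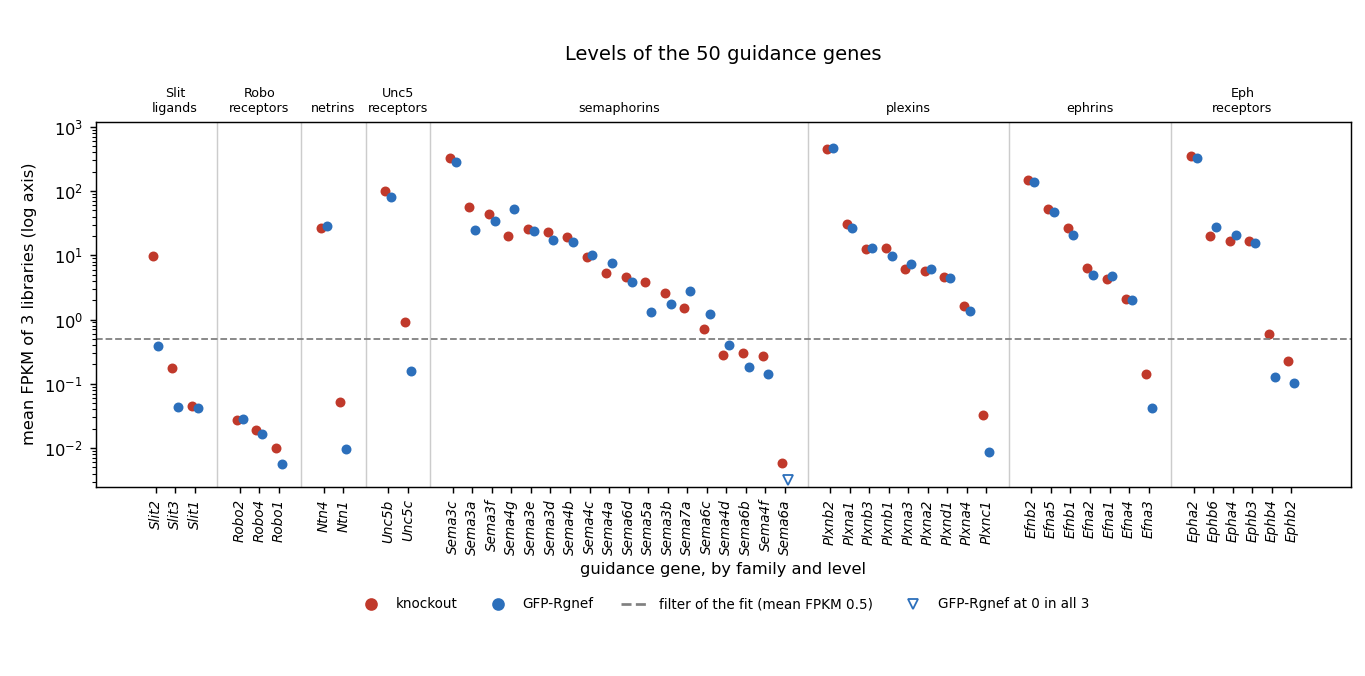
Mean FPKM of 3 knockout libraries (red, left) and 3 GFP-Rgnef libraries (blue, right) on a log axis for each of the 50 guidance genes, by family and level. The means of Slit2, Unc5c and Ephb4 lie above 0.5 FPKM only in knockout libraries, the 3 Robo receptors lie below 0.05 FPKM in both groups, and Sema6a was at 0 in all GFP-Rgnef libraries.

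Slit2, Sema3a, Sema5a, Unc5c and Sema3f rose and Sema4g and Ephb6 fell in knockout relative to GFP-Rgnef libraries. A call here means a limma adjusted p below 0.05 in a fit over all genes tested, where 8.04% of genes were called higher and 5.34% lower (13.4% in all). The comparison of these groups was in view when the genes were listed, so the differences are descriptions and nothing is read from the counts of 5 higher and 2 lower among 36. The median log2(FPKM + 1) difference, knockout minus GFP-Rgnef, was 0.10 over these 36 genes and -0.02 over all 11500. All 3 knockout libraries lay above all 3 GFP-Rgnef libraries for 11 of the 36 and below them for 5, against 16.7% of all genes in each direction.

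**Figure D2:**
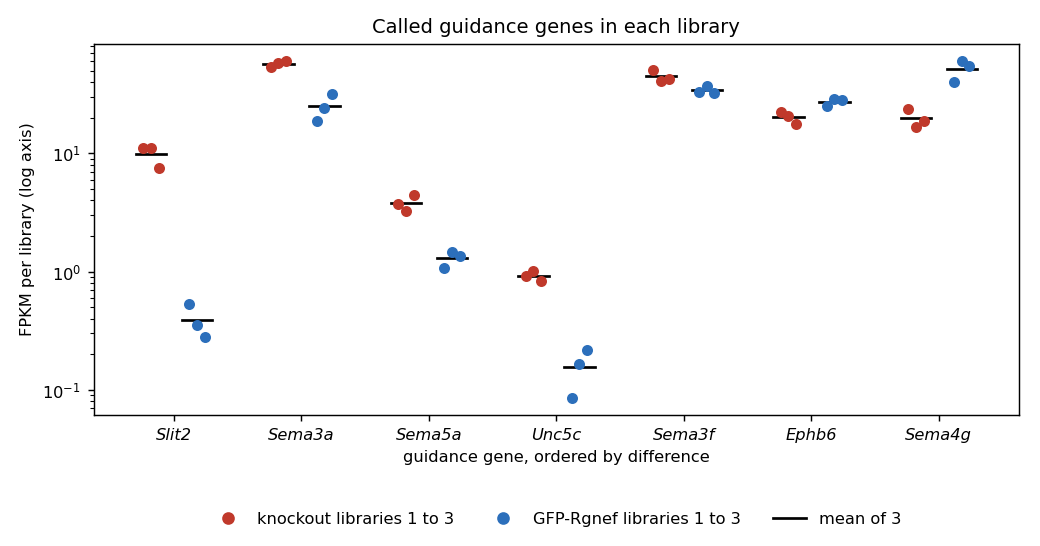
FPKM of the 7 called guidance genes in each library on a log axis, with knockout libraries 1 to 3 in red on the left, GFP-Rgnef libraries 1 to 3 in blue on the right, and black bars for means. The groups do not overlap for any of the 7, and Slit2 shows the widest gap, with 7.43 FPKM in the lowest knockout library against 0.527 FPKM in the highest GFP-Rgnef library.

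Slit2 (ENSMUSG00000031558, GRCm38 chromosome 5, 47983138 to 48307733, plus strand, protein coding), a large secreted ligand of Robo receptors, had 11.1, 11.2 and 7.43 FPKM in knockout libraries 1 to 3 and 0.527, 0.353 and 0.281 FPKM in GFP-Rgnef libraries 1 to 3. Every knockout library was far above every GFP-Rgnef library, and library 3 was the lowest in each group. The means were 9.92 ± 2.15 FPKM in knockout and 0.387 ± 0.127 FPKM in GFP-Rgnef libraries (SD, n = 3 each), a ratio of 25.6. The log2(FPKM + 1) difference was 2.96 (SE 0.162), the 3rd largest of 11500 genes. The added 1 compresses differences of genes as low as Slit2 was in GFP-Rgnef cells. Adding 0.1 instead gave a difference of 4.37, and voom on the recovered reads gave 4.67. These reads were 536, 520 and 333 in knockout and 24, 15 and 13 in GFP-Rgnef libraries, so relative counting error is larger in GFP-Rgnef libraries.

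The other Slits and the Robo receptors stayed near the limit of detection. Slit3 had 3, 8 and 6 recovered reads in knockout libraries and 3, 1 and 0 reads in GFP-Rgnef libraries, at most 0.248 FPKM in knockout and 0.0951 FPKM in GFP-Rgnef libraries. Slit1 had 4, 2 and 2 reads in knockout and 2, 3 and 2 reads in GFP-Rgnef libraries, at most 0.0654 FPKM. Slit2 was the 1 Slit gene above 1 FPKM, in knockout libraries. Robo1, a main receptor of Slit2, had 1, 0 and 1 reads in knockout and 0, 1 and 0 reads in GFP-Rgnef libraries. Robo2 had 3, 1 and 1 reads in knockout and 2, 1 and 2 reads in GFP-Rgnef libraries, and Robo4, known from endothelium, had 4, 0 and 0 reads in knockout against 0, 3 and 0 reads in GFP-Rgnef libraries. The groups overlap for all 3 receptors and for Slit1 and Slit3. Robo3, outside the list of 50, averaged 0.156 ± 0.0336 FPKM in knockout and 0.145 ± 0.0679 FPKM in GFP-Rgnef libraries (SD, n = 3 each). The highest value of any Robo gene in any library was 0.223 FPKM, of Robo3, and no difference in these receptors was detectable at this depth.

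Genes next to Slit2 were not called. On the side of higher coordinates the nearest tested genes were 5730480H06Rik, 20.2 kb away, with a log2 difference of 0.21 (SE 0.105), and Kcnip4, a potassium channel interacting protein gene 81.8 kb away, with 0.05 (SE 0.145). On the other side Lcorl and Ncapg, a condensin subunit gene, lie 2125.5 and 2282.6 kb away and differed by 0.14 (SE 0.128) and 0.11 (SE 0.075). Limma adjusted p of these 4 genes ranged from 0.242 to 0.865.

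The sequences before the annotated starts of Slit2 and Sema3a are shown because these genes had the 2 highest differences among the 36. They are the 250 bases before the RefSeq start (GRCm38.p6, plus strand), 5′ to 3′, with matches to GGGCGG on either strand, the core of the SP1 motif, in capitals: Slit2 at chr5:47982905-47983154 and Sema3a at chr5:13396534-13396783.
Slit2: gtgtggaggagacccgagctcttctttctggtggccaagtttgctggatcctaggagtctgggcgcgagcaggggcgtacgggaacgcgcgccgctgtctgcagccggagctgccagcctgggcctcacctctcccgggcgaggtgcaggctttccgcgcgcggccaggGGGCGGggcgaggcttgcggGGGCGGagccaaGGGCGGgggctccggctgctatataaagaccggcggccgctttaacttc
Sema3a: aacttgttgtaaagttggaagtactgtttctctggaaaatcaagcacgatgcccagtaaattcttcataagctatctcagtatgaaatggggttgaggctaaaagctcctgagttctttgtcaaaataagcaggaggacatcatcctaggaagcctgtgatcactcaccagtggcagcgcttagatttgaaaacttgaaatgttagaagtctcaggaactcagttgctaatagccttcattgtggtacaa
The Slit2 window held 3 matches and had a GC content of 69.6%, and the Sema3a window held 0 and had 40.8%, where the median of 32851 RefSeq windows of all genes was 52.4%. GGGCGG occurred in 32.7% of those windows and in those of 32 of the 43 guidance genes with an entry. For this and the motifs below, the share is of windows, while a guidance gene counted if any of its windows matched. The 2 are unlike measures and are not compared. Of the called genes Slit2, Sema5a, Sema4g and Ephb6 held it. The motifs of AP-1 (TGANTCA), TEAD (GGAATG), NRF2 (TGACNNNGC) and the E-box CACGTG, searched on both strands, were in 6.75%, 12.6%, 10.2% and 6.02% of all windows. They matched 3, 5, 7 and 3 of the 43 guidance genes, and none of the 6 called ones with an entry. The Sema3a window lies inside the longer gene that GENCODE annotates, other starts were not examined, and a GGGCGG match is a description of letters only.

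Among netrin genes of the main list no ligand was called and 1 receptor rose. Neogenin (Neo1), a netrin receptor outside that list, was also called higher and is described below. Ntn4, a netrin that binds laminin in basement membranes, had 26.2, 24.9 and 28.6 FPKM in knockout and 26.9, 28.7 and 29.4 FPKM in GFP-Rgnef libraries, with overlapping groups. Its difference was -0.09 (95% interval -0.27 to 0.09). Ntn1, the classical ligand of Unc5 receptors, had 0, 2 and 9 reads in knockout and 0, 1 and 1 reads in GFP-Rgnef libraries, and so was at or near the limit of detection. Unc5c (ENSMUSG00000059921, GRCm38 chromosome 3, 141465216 to 141834924, plus strand), a netrin receptor that mediates repulsion, had 0.921, 1.02 and 0.832 FPKM in knockout and 0.0853, 0.164 and 0.218 FPKM in GFP-Rgnef libraries. The groups do not overlap, and the ratio of means was 5.92. The log2 difference was 0.74 (SE 0.127) with the added 1, 2.03 with an added 0.1 and 2.59 by voom on 57, 61 and 48 recovered reads in knockout and 5, 9 and 13 reads in GFP-Rgnef libraries. Without any 1 knockout library the mean of Unc5c was under the filter, so its call could not be repeated there. Unc5b, its more abundant relative, had 98.6, 86.7 and 111.9 FPKM in knockout and 79.2, 80.4 and 82.7 FPKM in GFP-Rgnef libraries. All knockout libraries lay above the others, but Unc5b was not called (difference 0.28, 95% interval 0.07 to 0.50). Unc5b was the main Unc5 receptor in both groups, far above Unc5c.

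Class 3 semaphorins are secreted, and 6 of them were above the filter. Their summed level was 475.3 ± 27.9 FPKM in knockout and 382.2 ± 44.6 FPKM in GFP-Rgnef libraries (SD, n = 3 each), and the log2 differences of all 6 were positive, from 0.10 to 1.20. Sema3a (ENSMUSG00000028883, GRCm38 chromosome 5, 13125414 to 13602565, plus strand), which signals through neuropilin-1 and A-type plexins, had 53.4, 58.1 and 60.2 FPKM in knockout and 18.7, 24.1 and 31.7 FPKM in GFP-Rgnef libraries. Even the highest GFP-Rgnef library, number 3, was below the lowest knockout library, and the GFP-Rgnef group was the more spread. The difference was 1.20 (SE 0.162), and the share of Sema3a in class 3 FPKM was 12.05% ± 0.131 in knockout libraries and 6.45% ± 1.13 in GFP-Rgnef libraries (SD, n = 3 each). Sema3f (ENSMUSG00000034684, GRCm38 chromosome 9, 107681500 to 107710475, minus strand), a ligand of neuropilin-2, had 50.4, 41.1 and 42.5 FPKM in knockout and 33.2, 37.0 and 32.1 FPKM in GFP-Rgnef libraries, without overlap and with a narrower gap than for Sema3a. Its difference of 0.38 (SE 0.096) lost its call under more of the alternatives tried than that of any other of the 7 genes. It was 0.09 once each chromosome's median deviation was taken out of each library. Tested genes of chromosome 9 had a median difference of 0.28. The call was also lost without knockout 1, knockout 2, or any 1 of the GFP-Rgnef libraries, with differences from 0.29 to 0.44, and when no low genes were filtered out or no trend was fitted.

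The other 4 class 3 genes were not called with all 6 libraries. Sema3c, the most abundant semaphorin, had 289.2, 320.6 and 355.1 FPKM in knockout and 265.8, 248.2 and 327.0 FPKM in GFP-Rgnef libraries, overlapping groups in which library 3 was highest each time. Sema3d had 25.8, 26.2 and 18.1 FPKM in knockout and 18.1, 17.1 and 16.8 FPKM in GFP-Rgnef libraries. Knockout 3 stood with the GFP-Rgnef libraries, and without it the difference was 0.56 in place of 0.40 and Sema3d was called, as it was with the libraries numbered 1 and 2 alone (0.54). Sema3b, on chromosome 9, differed by 0.39 (SE 0.121), and by 0.10 with the chromosome medians removed. Sema3e, the ligand of plexin-D1, differed by 0.10 (SE 0.084). Sema3a, Sema3c, Sema3d and Sema3e lie on chromosome 5 between 12383385 and 17730268. Sema3d and Sema3e are the nearest tested genes on either side of Sema3a, 536.5 and 422.7 kb away.

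No plexin or neuropilin, the receptors of these ligands, was called. Neuropilin-1 (Nrp1), not on the list of 50, averaged 46.0 ± 2.13 FPKM in knockout and 47.1 ± 2.84 FPKM in GFP-Rgnef libraries, and neuropilin-2 (Nrp2) 27.6 ± 2.89 FPKM in knockout and 33.5 ± 2.05 FPKM in GFP-Rgnef libraries (SD, n = 3 each). Nrp2 lay below the GFP-Rgnef libraries in all 3 knockout libraries but was not called. Of the 9 plexins 8 were above the filter and 0 were called by limma, 0 by voom and 0 at an unadjusted p below 0.05. Over all 11500 tested genes limma called 8.04% higher and 5.34% lower, and voom called 996 higher and 575 lower. At an unadjusted limma p below 0.05, 1718 of all genes were higher and 1551 lower. Nothing is read from a count of 0 among 8. Plexin differences ran from -0.23 for Plxna3 to 0.37 for Plxnb1, which lies on chromosome 9 and was at 0.08 with the chromosome medians removed. Plxnb2 had 505.9, 426.6 and 413.3 FPKM in knockout and 481.1, 493.3 and 433.2 FPKM in GFP-Rgnef libraries, and its difference was -0.07 (95% interval -0.28 to 0.14). Plxna1, the main A-type plexin here, averaged 30.8 ± 3.51 FPKM in knockout and 26.2 ± 2.46 FPKM in GFP-Rgnef libraries. Plxnd1, the receptor of Sema3e, averaged 4.61 ± 1.87 FPKM in knockout and 4.47 ± 0.377 FPKM in GFP-Rgnef libraries. Plxnc1, the receptor of Sema7a, had at most 3 reads in any library.

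Of the semaphorins outside class 3, which stay on the cell membrane, 1 rose and 1 fell, beside 8.04% and 5.34% of all genes. Sema5a (ENSMUSG00000022231, GRCm38 chromosome 15, 32244810 to 32696341, plus strand), a transmembrane semaphorin with thrombospondin repeats, had 3.76, 3.24 and 4.48 FPKM in knockout and 1.07, 1.48 and 1.37 FPKM in GFP-Rgnef libraries. The lowest knockout library was more than 2 times the highest GFP-Rgnef library, and the difference was 1.06 (SE 0.133). Sema4g (ENSMUSG00000025207, GRCm38 chromosome 19, 44989101 to 45003397, plus strand), a class 4 semaphorin described as a ligand of plexin-B2, had 23.9, 16.6 and 18.6 FPKM in knockout and 40.0, 60.7 and 54.4 FPKM in GFP-Rgnef libraries. Here every knockout library was below every GFP-Rgnef library. The ratio of means was 0.381 and the log2 difference -1.34 (SE 0.172), the 22nd lowest of 11500 genes. The genes beside Sema4g differed by little: Slf2, 5.8 kb away, by -0.04 (limma adjusted p = 0.796), and Mrpl43, 1.4 kb away, by -0.11 (limma adjusted p = 0.389).

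The other 10 semaphorins outside class 3 were not called or not tested. Sema4a and Sema7a, the second anchored by a lipid tail, had negative differences of -0.43 (95% interval -0.77 to -0.09) and -0.59 (SE 0.243), and Sema4b, on chromosome 7, a positive one of 0.24 (SE 0.076) that was -0.01 with the chromosome medians removed. Sema4a was below the GFP-Rgnef libraries in all 3 knockout libraries and Sema4b above them. Sema4c, Sema6c and Sema6d overlapped between the groups, with differences of -0.09, -0.34 and 0.23. Sema4d, Sema4f, Sema6a and Sema6b were under the filter, at most at 0.495 FPKM in any library.

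**Figure D3:**
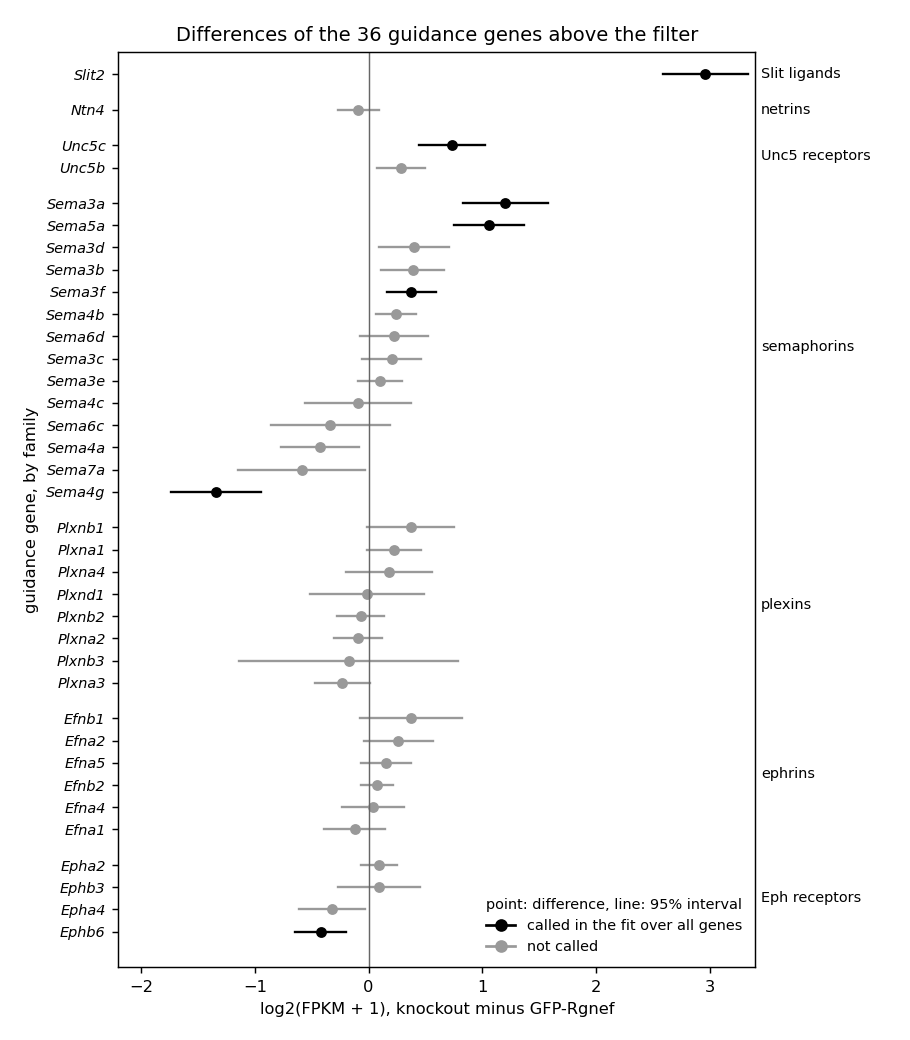
Difference in log2(FPKM + 1), knockout minus GFP-Rgnef, for the 36 guidance genes above the filter, by family, with points for the fitted difference, lines for its 95% interval, black for called genes and gray for the rest. Slit2 stands at 2.96 and Sema4g at -1.34. The plexins shown lie between -0.23 and 0.37, the ephrins between -0.12 and 0.37 and the Eph receptors between -0.42 and 0.09. Epha7 is not among the 36 genes.

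Of the 7 ephrins 6 were above the filter, and 0 of these were called by limma, 0 by voom and 0 at an unadjusted p below 0.05. Limma called 8.04% of all genes higher and 5.34% lower, so nothing is read from a count of 0 among 6. Efnb2, a transmembrane ligand of EphB4 and other EphB receptors, had 142.6, 142.3 and 155.6 FPKM in knockout and 139.0, 137.4 and 140.8 FPKM in GFP-Rgnef libraries. The groups do not overlap, but the difference was 0.08 (95% interval -0.06 to 0.22). Efna5, a lipid-anchored ligand of EphA receptors, averaged 53.0 ± 1.83 FPKM in knockout and 47.7 ± 6.54 FPKM in GFP-Rgnef libraries, and Efnb1 26.4 ± 4.65 FPKM in knockout and 20.5 ± 5.88 FPKM in GFP-Rgnef libraries (SD, n = 3 each). Efna1, Efna2 and Efna4 lay between 1.73 and 7.80 FPKM in every library. Efna3 was under the filter, with 8 reads in knockout 3 and at most 2 in any other library.

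Among the Eph receptors of the main list 1 fell. Epha7, an Eph receptor outside that list, was called higher, with a difference of 1.65 (SE 0.099), and is described below. Ephb6 (ENSMUSG00000029869, GRCm38 chromosome 6, 41605482 to 41620509, plus strand), a receptor whose kinase domain is inactive, had 22.2, 20.8 and 17.7 FPKM in knockout and 25.2, 28.8 and 28.0 FPKM in GFP-Rgnef libraries. The groups do not overlap, and the difference was -0.42 (SE 0.098). The call was lost without knockout 2, GFP-Rgnef 2 or GFP-Rgnef 3, with differences from -0.44 to -0.38, and when no low genes were filtered out. Epha2, the receptor for ephrin-A1 that is often abundant in carcinoma, had 348.2, 325.0 and 362.7 FPKM in knockout and 344.6, 322.9 and 304.7 FPKM in GFP-Rgnef libraries, with overlap and a difference of 0.09 (95% interval -0.07 to 0.25). Epha4 lay below the GFP-Rgnef libraries in all 3 knockout libraries, at 16.7 ± 2.75 FPKM in knockout against 20.98 ± 2.001 FPKM in GFP-Rgnef libraries (SD, n = 3 each), but was not called (difference -0.32, 95% interval -0.61 to -0.03). Ephb3 overlapped, with a difference of 0.09.

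The other 2 Eph receptors of the main list, Ephb4 and Ephb2, were under the filter and had no test. Ephb4, the main receptor of ephrin-B2, had 43, 23 and 57 recovered reads in knockout and 15, 7 and 4 reads in GFP-Rgnef libraries, or 0.596, 0.329 and 0.849 FPKM in knockout against 0.220, 0.110 and 0.0577 FPKM in GFP-Rgnef libraries. Ephb2 had 20, 16 and 10 reads in knockout and 7, 3 and 10 reads in GFP-Rgnef libraries. The groups do not overlap in FPKM for either receptor, and both stayed below 1 FPKM beside an Efnb2 level above 137 FPKM. Just inside the filter were Unc5c, at a mean of 0.540 FPKM over all libraries, and Sema6c at 0.979. Just outside it were Ephb4 at 0.360 and Sema4d at 0.343 FPKM.

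Libraries numbered 3 differed from the other libraries of their group for many guidance genes. Library 3 was the lowest of its group in both groups for 11 of the 36 genes (30.6%, against 22.2% of all genes) and the highest in both for 10 (27.8%, against 26% of all genes). Plxnb3, a receptor described for Sema5a, had 17.4, 14.9 and 4.77 FPKM in knockout and 15.3, 15.3 and 8.17 FPKM in GFP-Rgnef libraries. In both groups it had the largest drop of the 36 genes in library 3, by -1.57 in knockout and -0.83 in GFP-Rgnef on the log2(FPKM + 1) scale relative to libraries 1 and 2. Its knockout minus GFP-Rgnef difference was -0.18 (SE 0.420), 0.35 without knockout 3 and 0.07 with the libraries numbered 1 and 2 alone. Sema4c and Efnb1 were also low in both libraries numbered 3, whereas Plxnd1 was high in knockout 3 and not in GFP-Rgnef 3. The labels name no batch behind these numbers.

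**Figure D4:**
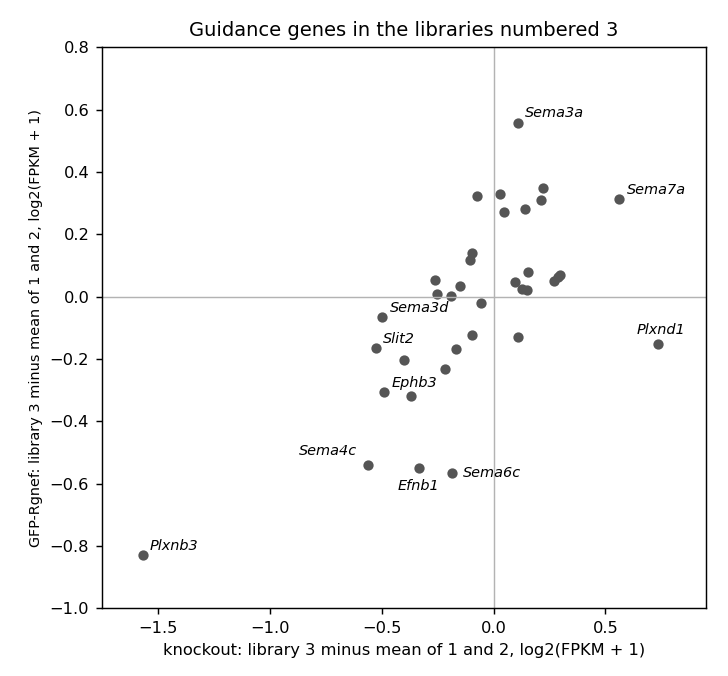
Each of the 36 tested guidance genes by how far library 3 departs from the mean of libraries 1 and 2 on the log2(FPKM + 1) scale, in knockout (x axis) and in GFP-Rgnef libraries (y axis). Plxnb3 lies lowest on both axes, at -1.57 and -0.83, and Plxnd1 is high on the knockout axis only.

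Other genes of these pathways were counted from 5 lists of 117 genes not on the list of 50. Of 88 that were tested 19 rose and 3 fell (limma, adjusted p below 0.05), beside 8.04% and 5.34% of all genes, with a median difference of 0.04 against -0.02 over all genes. Of the 19, 12 lie on chromosome 7 or 9, whose tested genes had median differences of 0.24 and 0.28. Of the 925 higher calls over all genes, 236 lay on chromosome 7 and 234 on chromosome 9. With each chromosome's median deviation removed, 11 rose and 2 fell, and with chromosomes 7 and 9 left out 7 rose. Nothing is read from these counts or from those of the single lists below. The genes named below were picked by their differences, so the adjusted p printed beside them are descriptions only.

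Of 33 further guidance ligands and receptors 14 were tested, and 4 rose and 0 fell, beside 8.04% and 5.34% of all genes. By voom 0 fell as well, and 2 were lower at an unadjusted p below 0.05. Epha7, an EphA receptor of ephrin-A5, had 10.9, 11.0 and 9.92 FPKM in knockout and 2.41, 3.004 and 2.67 FPKM in GFP-Rgnef libraries, with a difference of 1.65 (SE 0.099, limma adjusted p = 9.27e-05). Plxdc2, a membrane protein with a plexin-like domain, averaged 14.2 ± 2.27 FPKM in knockout and 7.94 ± 1.69 FPKM in GFP-Rgnef libraries (limma adjusted p = 0.0179). Flrt2, a cell surface protein that binds Unc5 receptors, averaged 32.3 ± 4.43 FPKM in knockout and 23.1 ± 0.332 FPKM in GFP-Rgnef libraries (limma adjusted p = 0.0234). The other riser was neogenin (Neo1, on chromosome 9), a receptor of netrins, named after its values were seen. Neo1 averaged 23.2 ± 2.12 FPKM in knockout and 18.0 ± 0.226 FPKM in GFP-Rgnef libraries. Dcc, the classical netrin receptor, was listed at 0 in all 6 libraries.

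On the list of Slit and Robo binding partners and effectors, 4 of 19 tested genes rose and 1 fell, beside 8.04% and 5.34% of all genes. Gpc1, a glypican that binds Slits, averaged 21.2 ± 5.61 FPKM in knockout and 11.6 ± 0.987 FPKM in GFP-Rgnef libraries, and Dag1, the dystroglycan gene on chromosome 9 whose product also binds Slits, 71.2 ± 7.56 FPKM in knockout and 48.8 ± 2.36 FPKM in GFP-Rgnef libraries (limma adjusted p = 0.0169 and 0.00725). Cables1, a partner of the kinase Abl, averaged 3.50 ± 0.961 FPKM in knockout and 1.36 ± 0.484 FPKM in GFP-Rgnef libraries (limma adjusted p = 0.0207). Nck2, an SH2 and SH3 adaptor, fell to 33.5 ± 2.81 FPKM in knockout, against 49.0 ± 2.15 FPKM in GFP-Rgnef libraries (limma adjusted p = 0.00512). Of 14 tested netrin receptor effectors 2 rose, both on chromosome 7. These were the kinase gene Pak1, with 11.6 ± 0.383 FPKM in knockout and 4.78 ± 0.747 FPKM in GFP-Rgnef libraries (limma adjusted p = 0.000953), and Dock1, a Rac exchange factor gene, with 12.5 ± 0.499 FPKM in knockout and 7.09 ± 0.568 FPKM in GFP-Rgnef libraries (limma adjusted p = 0.00221). Elmo1, whose product works with Dock proteins, fell to 10.7 ± 1.44 FPKM in knockout, against 15.8 ± 0.696 FPKM in GFP-Rgnef libraries (limma adjusted p = 0.0134).

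Of 26 tested plexin and neuropilin effectors 7 rose and 0 fell, beside 8.04% and 5.34% of all genes. By voom and at an unadjusted p below 0.05 the same numbers rose and fell. Of the 7, 5 lie on chromosome 7 or 9, which held 236 and 234 of the 925 higher calls of all genes. Dpysl3, a collapsin response mediator gene, averaged 16.0 ± 6.85 FPKM in knockout and 5.23 ± 1.27 FPKM in GFP-Rgnef libraries (limma adjusted p = 0.0119). Mical2, which encodes an actin-oxidising enzyme of the MICAL family and lies on chromosome 7, averaged 198.9 ± 8.12 FPKM in knockout and 104.6 ± 8.24 FPKM in GFP-Rgnef libraries (limma adjusted p = 0.000353). Its relative Mical1 averaged 1.70 ± 0.361 FPKM in knockout and 0.353 ± 0.126 FPKM in GFP-Rgnef libraries. Like Slit2 and Unc5c, Mical1 passed the filter only through the knockout libraries, so it had to differ to be tested. Its exons overlap Smpd2 on the opposite strand, whose reads cannot be told apart without strand. Of 15 tested Eph and ephrin effectors 2 rose. Adam10, a protease that cleaves ephrins, lies on chromosome 9 and averaged 109.7 ± 10.2 FPKM in knockout and 80.5 ± 12.6 FPKM in GFP-Rgnef libraries (limma adjusted p = 0.0400). Inppl1, a lipid phosphatase gene on chromosome 7 whose product binds EphA2, averaged 109.1 ± 6.49 FPKM in knockout and 82.2 ± 4.53 FPKM in GFP-Rgnef libraries (limma adjusted p = 0.00982), and its exons overlap Gm10602 on the opposite strand. Ngef, the exchange factor ephexin, fell to 17.4 ± 1.48 FPKM in knockout, against 24.0 ± 3.70 FPKM in GFP-Rgnef libraries (limma adjusted p = 0.0479).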

How the data were processed

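PolyA-selected RNA of 3 knockout and 3 GFP-Rgnef libraries was sequenced. The authors deposited 1 table of FPKM per Ensembl gene. The submitters' processing notes name CASAVA 1.8, TopHat2 2.0.9, DESeq2 and the build mm10, and the program that computed FPKM and its gene lengths is not given in the sources used here. The GENCODE annotation of GRCm38 (release M 21) gave a symbol and position to 34490 of 35275 IDs. The lengths behind FPKM, recovered from steps of 1 read (values taken as whole within 0.001), were shorter than annotated exons for many genes (2675 against 25433 bases for Slit2), so recovered reads are the smallest whole numbers possible. Whether strand was used in counting is not stated.

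Differences are knockout minus GFP-Rgnef on log2(FPKM + 1), fitted with limma 3.58.1 (trend, R 4.3.3) over 11500 genes with a mean of at least 0.5 FPKM, with Benjamini-Hochberg adjustment over all of them and a call at an adjusted p below 0.05. Since the labels do not say that libraries came from separate cultures, p-values measure only how these libraries spread, and that spread may be technical. Same-numbered libraries are not shown to be pairs: their deviations from group means correlated at 0.321, -0.020 and 0.552 over genes, so no block was used. The members and lists were chosen with earlier results of these data known, so no p is given for a member or for a list as a whole. Adjusted p are printed for single genes of the other pathway lists, from the same comparison. They describe how far the groups stood apart beside the spread of these libraries, and are not tests of genes chosen beforehand. Values per library are given for Slit and Robo genes, called members and the most abundant member of a family, and of each pathway list the 3 called genes with the largest differences each way are named. Sema3d, Plxnb3, Ephb2, Ephb4, Robo3, Dcc, Nrp1, Nrp2 and Neo1 were added after their values were seen. Alternatives covered the pseudocount, filter, scaling, trend, voom, a replicate block, chromosome medians, chromosomes 7 and 9, and each library left out. The fit was tested on simulated reads drawn independently for each library, with the same extra spread for every gene. No shift shared by libraries was simulated, so the test does not cover libraries that deviate together, as those numbered 3 did.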

Additional observations from a re-analysis of the deposited data

How the results depend on the processing

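Of 630 differences of guidance genes recomputed under the alternatives, 589 kept their direction and side of the threshold, 12 lost and 18 gained a call, and 11 changed sign. The calls of Slit2, Sema3a, Sema5a and Sema4g held without each library in turn, where their differences ran from 2.87 to 3.14, 1.02 to 1.39, 0.97 to 1.15 and -1.51 to -1.22. Slit2 passed the filter in these fits only through knockout libraries, so its held call is a description. Guidance genes called higher and lower numbered 5 and 2, and were 4 and 1 with no filter on low values, 3 and 2 with a mean of at least 5 FPKM, 8 and 2 with the libraries numbered 1 and 2 alone, and 3 to 5 and 1 to 2 without each library in turn. With a replicate block they were 13 and 5, all genes 1517 and 1253, and other pathway genes 22 and 6, while the numbers are not shown to pair libraries. All genes called numbered 925 higher and 614 lower, against 725 and 394 with no filter, 491 and 384 with chromosome medians removed, 393 and 471 without chromosomes 7 and 9, 1278 and 1059 with the libraries numbered 1 and 2, and 458 to 848 and 198 to 580 without each library in turn. Other pathway genes called numbered 19 and 3, against 11 and 2 with chromosome medians removed, 7 and 2 without chromosomes 7 and 9, 23 and 7 with the libraries numbered 1 and 2, 13 and 2 with no filter, and 12 to 18 and 1 to 4 without each library in turn. The causes of these shifts were not tested, except that fewer libraries or genes entered some fits. Signs that changed belonged to genes that were not called: with chromosome medians removed, Sema4b was at -0.0094 and Plxnd1 at 0.016, with the libraries numbered 1 and 2 Plxnb3 was at 0.071, and without each library in turn Sema4c ran from -0.27 to 0.093, Plxnb3 from -0.49 to 0.35, Plxnd1 from -0.26 to 0.23, Efna4 from -0.030 to 0.13 and Ephb3 from -0.047 to 0.25. Depth limits what can be said of Slit1, Slit3, Robo1, Robo2, Robo4, Ntn1, Plxnc1, Efna3 and Sema6a, which had fewer than 10 reads in every library.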
